A study of Mus musculus with 4 samples.

Results

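Natural killer (NK) cells in MB49 bladder carcinomas were studied in 2 libraries of CD45-positive cells, 1 from male and 1 from female mice. A cell was taken as an NK cell when it met all conditions of a rule on its unique molecular identifiers (UMIs, tags that mark each captured RNA molecule). The cell had at least 500 UMIs and 250 genes, at most 25% mitochondrial UMIs, and at least 2 UMIs of Ncr1 and Klrb1c together. It had at most 1 UMI of Cd3e, Cd3d and Cd3g together, 0 UMIs of Cd8a, Cd8b1 and Cd4, and less than 0.3% of its UMIs in C1qa, C1qb and C1qc, complement genes of macrophages. The rule found 169 NK cells among 9974 kept CD45-positive cells, 112 of 5379 cells from male tumours and 57 of 4595 from female tumours.

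MB49 is a mouse bladder carcinoma line, and the tumours it forms were minced, digested with collagenases, DNase and dispase, and cleared of red cells. Live cells were sorted with an antibody to CD45, a surface protein of blood-derived cells, into a positive and a negative gate. Each gate of each sex gave 1 BD Rhapsody whole-transcriptome library, 4 in all with 19375 kept cells. The groups used here are CD45-positive cells from male tumours and CD45-positive cells from female tumours, all tumours carrying the same line with no treatment named, and the labels give neither strain, nor age, nor the number of mice per library.

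NK cells are innate lymphocytes that kill stressed or transformed cells without a rearranged antigen receptor. They read activating receptors such as NKp46 and NKG2D against inhibitory receptors of the Ly49 and NKG2A families that bind MHC class I, and they kill through perforin, granzymes and death ligands. Interleukin-15, signalling through Il2rb and Il2rg, keeps them alive, the transcription factors Eomes and T-bet set their identity, and their chemokines XCL1 and CCL5 are known to draw dendritic cells and other leukocytes into tumours.

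The male CD45-positive library held 5771 barcodes and 40644787 UMIs, and the female one 5169 barcodes and 37705608 UMIs. Male NK cells summed to 601087 UMIs and female NK cells to 301665, with medians of 4670 UMIs (range 1060 to 17561) and 4081 UMIs (1148 to 20408) per cell. Levels are given below as CPM, counts scaled to a common total over all NK cells of a library, and a count of 3 UMIs, the detection floor used here, corresponds to 4.99 CPM in male and 9.94 CPM in female NK cells. With 1 library per sex there was no replicate and no test, so that sex cannot be told apart from any other difference between the libraries. The 95% intervals cover counting error only. The sex labels held in the NK cells: Xist, the X-inactivation RNA, had 0 UMIs in male and 49 in female NK cells, and the Y-linked Ddx3y had 83 UMIs in male and 0 in female NK cells.

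RNA of phagocytes (cells with at least 0.3% of UMIs in the C1q genes, 2505 male and 2731 female cells) was also counted in NK cells, more so in the female library. The C1q genes summed to 469 CPM in male and 1382 CPM in female NK cells, which is 4.16% and 13.7% of the level in phagocytes of the same library. CD8 T cells showed nearly the same shares, 3.99% and 11.4%. As the C1q limit also chose the CD8 T cells and defined the phagocytes, these shares are partly set by the choice of cells. Of the macrophage markers, which include the C1q genes of the rule, all 12 measured were lower in male than in female NK cells by at least 1.5-fold. The list summed to 1441 CPM in male and 3729 CPM in female NK cells, against 30616 and 25087 CPM in phagocytes. The 6 B cell markers had 0 UMIs in NK cells of either library, while neutrophil markers summed to 63.2 and 53 CPM. For many of the genes that phagocytes also express, phagocyte levels are therefore given beside the sex comparison, and the part of phagocyte RNA in them was not tested.

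The cells carried the NK transcripts that their label calls for and that the rule did not use. Eomes, the T-box factor of conventional NK cells, had 289 CPM in male and 305 CPM in female NK cells, against 52.1 and 46.8 CPM in CD8 T cells. Klre1, an NK lectin-like receptor, had 532 CPM in male and 401 CPM in female NK cells, and Prf1, the pore-forming protein perforin, had 862 CPM in male and 885 CPM in female NK cells. CD8 T cells held Klre1 at 57.7 and 145 CPM and Prf1 at 174 and 72.3 CPM, far below NK cells. The 2 genes that chose the cells were at 303 and 232 CPM for Ncr1 (NKp46) and 531 and 544 CPM for Klrb1c (NK1.1) in male and female cells, which is a description of the rule.

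T cell receptor transcripts were checked apart from the CD3 genes of the rule. Trac, the constant gene of the T cell receptor alpha chain, had 10 UMIs in male and 17 in female NK cells (16.6 and 56.4 CPM), against 1480.5 and 1368 CPM in CD8 T cells and 52.2 and 48.5 CPM in phagocytes. The NK level was thus below that of phagocytes, which do not use the gene, in the male library and near it in the female library. No Trac UMI was found in 103 of 112 male and 45 of 57 female NK cells. The beta constant genes behaved otherwise, with Trbc1 at 659 CPM in male and 438 CPM in female NK cells and at 539.6 and 323 CPM in CD8 T cells, and Trbc2 at 293 and 239 CPM against 1282 and 1613 CPM. Trdc, the delta constant gene, had 106 CPM in male and 72.9 CPM in female NK cells, more than the 3.79 and 4.26 CPM of CD8 T cells. Unrearranged transcripts of the beta and delta loci are known in NK cells. Beyond the CD3 genes, which the rule limits, the label therefore holds for the alpha chain in most cells. It does not hold for beta and delta constant transcripts. Foxp3, Il17a, Il22, Il23r, Il5, Cd163l1 and Zfp683, markers of regulatory T cells, other innate lymphoid cells, gamma-delta T cells and ILC1 or resident lymphocytes, all had 0 UMIs. Other members of their lists were present. Of 8 gamma-delta T cell markers, Trdc among them, 3 were at 0, and the list summed to 160 CPM in male and 182 CPM in female NK cells. Of 5 regulatory T cell markers, Ctla4 among them, 1 was at 0, and that list summed to 218 and 411 CPM.

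**Figure D1:**
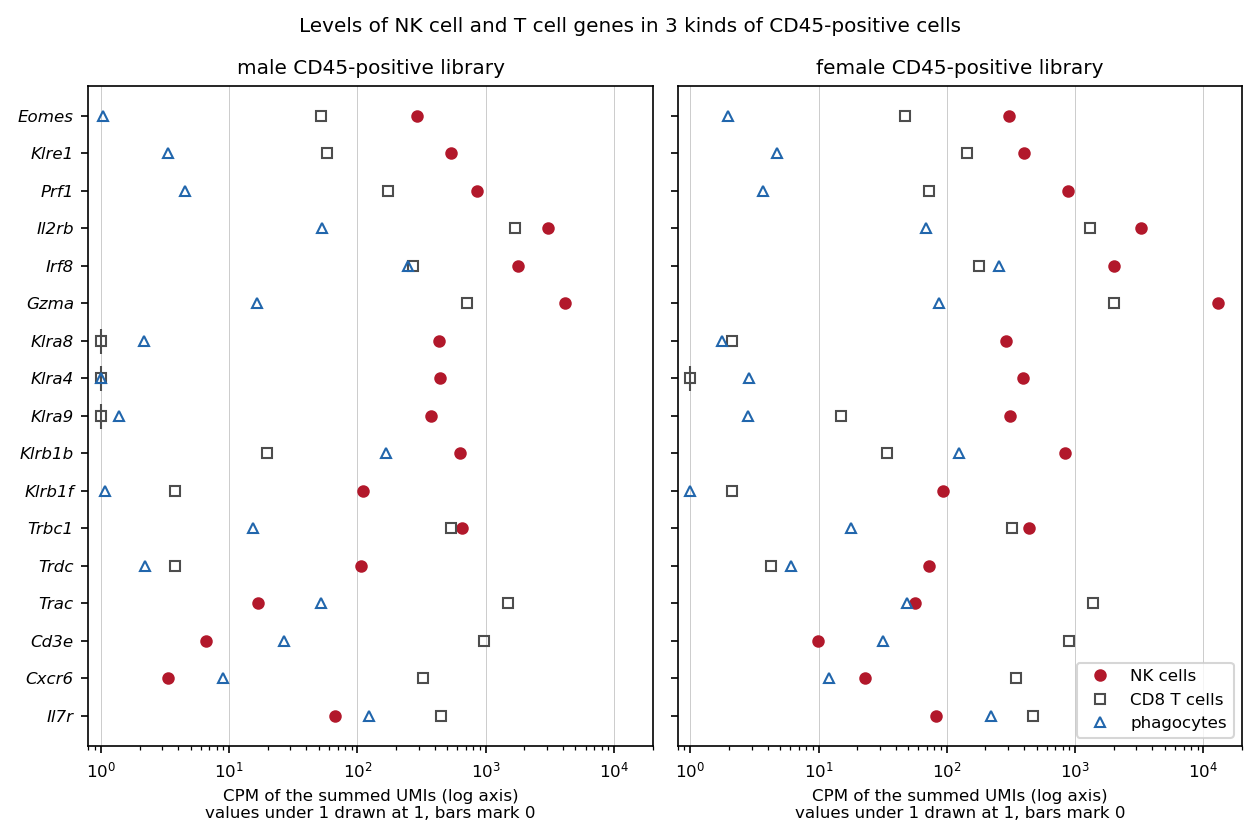
Levels of 17 genes in CPM (log axis, values under 1 drawn at 1, short bars marking 0) in NK cells (filled circles), CD8 T cells (squares) and phagocytes (triangles), in the male library (left) and the female library (right). Eomes, Klre1 and Prf1 lie highest in NK cells of either library, and Trac lies highest in CD8 T cells.

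The threshold on Ncr1 and Klrb1c cut through a continuous range. Just inside it, 34 male and 15 female cells had exactly 2 UMIs of the pair, and just outside it 39 male and 43 female cells had exactly 1. Cells with 2 UMIs held Gzma, a granzyme, at 4072 CPM in male and 6189.9 CPM in female cells, and cells with 1 UMI held it at 2112 and 4728 CPM. Eomes was at 382 and 150 CPM in cells with 2 UMIs, and at 96.2 and 294 CPM in cells with 1. On the CD3 limit, 9 male and 7 female NK cells had 1 CD3 UMI, and 21 male and 25 female cells that met the other conditions were left out with 2 or more. The C1q limit left out 11 male and 26 female cells. Those above 0.5% had medians of 14577 UMIs in the male and 16374 UMIs in the female library.

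Against all other kept CD45-positive cells, the NK genes with the largest folds were receptors, granule proteins and Eomes. As the cells were chosen by their own transcripts, of which the rule used Ncr1 and Klrb1c, the folds are a description. Of 3582 genes compared, 339 (9.46%) were at least 2-fold higher in NK cells in both libraries and 566 (15.8%) at least 2-fold lower. Folds are given for the male and then the female library. Klra8 (Ly49H) was 76.9-fold and 69.3-fold higher, Klra9 79.6-fold and 55-fold, and Klra4 (Ly49D, an activating receptor) 99.9-fold and 48.4-fold. Gzma was 68.1-fold and 87.6-fold higher, Prf1 58.7-fold and 90.4-fold, and Eomes 61.5-fold in either library. Txk, a Tec-family kinase of lymphocytes, was 37.9-fold and 46.5-fold higher, and Il2rb, the beta chain of the receptors for interleukin-2 and interleukin-15, 17.1-fold and 22.8-fold. Less familiar members of the top 25 were Car2, a carbonic anhydrase, at 1294 CPM in male and 1104 CPM in female NK cells and 35.3 and 37.5 CPM in the other cells, and Ctla2a, a cathepsin inhibitor, 16-fold and 17.3-fold higher. The 5 lowest genes, among them the phagocyte receptor Mertk, the collagen gene Col6a1 and the microglial marker gene Olfml3, had at most 3 UMIs in NK cells of a library.

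CD8 T cells (321 male, 114 female, with medians of 2290 and 3103 UMIs), the other cytotoxic lymphocytes of these tumours, were the closest comparison. They too were chosen by transcripts, with at most 1 UMI of Ncr1 and Klrb1c and the same C1q limit, so these folds are also a description. Of 3373 genes compared, 72 (2.13%) were at least 2-fold higher in NK cells in both libraries and 67 (1.99%) at least 2-fold lower. Klrb1b (NKR-P1B, an inhibitory receptor) had 629 CPM in male and 835 CPM in female NK cells, against 19.9 and 34 CPM in CD8 T cells. Hhex, a homeobox factor needed for NK development in mice, had 169.7 CPM in male and 186 CPM in female NK cells, against 20.8 and 17 CPM. Among the 10 genes that were furthest below CD8 T cells stood T cell signalling genes. Themis, a thymocyte selection gene, had 0 UMIs in NK cells of either library and 116 and 136 CPM in CD8 T cells. Lat, the adaptor of the T cell receptor, had 48.2 CPM in male and 36.5 CPM in female NK cells and 343 and 381 CPM in CD8 T cells. Il7r, the interleukin-7 receptor chain that marks memory T cells and other innate lymphoid cells, had 66.5 CPM in male and 82.9 CPM in female NK cells and 449 and 468 CPM in CD8 T cells, and Cxcr6, a receptor of tissue-resident lymphocytes, had 2 UMIs in male and 7 in female NK cells, against 326 and 349 CPM in CD8 T cells.

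NK cells made up 2.08% (1.72 to 2.5) of kept CD45-positive cells from male and 1.24% (0.941 to 1.6) of those from female tumours, a male:female ratio of 1.68 (1.21 to 2.35). This share depended on what the cells were counted against. Among cells below the C1q limit it was 3.9% and 3.06%, a ratio of 1.27 (0.918 to 1.79). Among NK, CD8 T and CD4 T cells together it was 15.2% in male and 16.6% in female tumours, a ratio of 0.914 (0.659 to 1.28). CD8 T cells were 5.97% of male and 2.48% of female kept cells, and CD4 T cells 5.65% and 3.74%, so that all 3 lymphocyte groups had the larger share in the male library. In the CD45-negative gate 1 of 5496 male cells and 0 of 3905 female cells met the same rule.

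Male and female NK cells had largely alike transcriptomes. Of 3548 genes with enough UMIs to compare (at least 30 in both sums together, at least 50 CPM in the higher library, at least 10 cells, and no cell with over 25% of the UMIs), 91.2% differed by less than 2-fold, and the median log2 male:female ratio was 0.04. At least 2-fold higher were 185 genes (5.21%) in male and 126 genes (3.55%) in female NK cells. The 2 groups of genes differed in their level in phagocytes. Each gene was compared with phagocytes only in the library where it was higher in NK cells. Of the 185 male-higher genes, 95 (51.4%) were at least 2-fold higher in NK cells than in phagocytes and 1 (0.541%) was at least 2-fold lower. Of the 126 female-higher genes, 27 (21.4%) were at least 2-fold above phagocytes and 34 (27.0%) at least 2-fold below. Over all 3548 genes these shares were 24.6% and 5.30%.

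**Figure D2:**
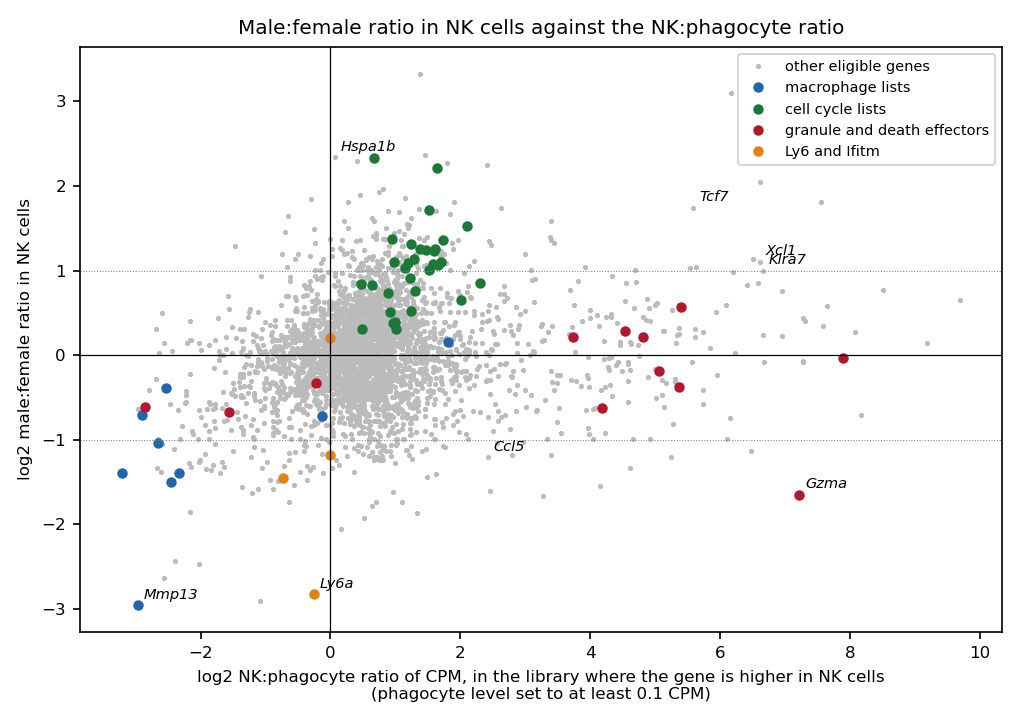
Each point is 1 of 3548 genes, with the log2 ratio of NK cells to phagocytes on the x axis (in the library where the gene was higher in NK cells) and the log2 male:female ratio in NK cells on the y axis, and role lists coloured. Among genes at least 2-fold lower in NK cells than in phagocytes, 1 lies 2-fold or more toward the male and 34 toward the female library.

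Role lists were compared by their members with at least 20 UMIs in both sums together. A member was counted when its level differed by at least 1.5-fold, against 13.6% of all 3548 genes that were at least 1.5-fold higher in male and 12.1% in female NK cells. List members did not have to meet the stricter limits of the 3548 genes, so these shares are only a rough measure beside the lists. The cell cycle lists stood farthest to the male side. Median log2 ratios were 1.10 for DNA replication and 0.76 for mitosis genes, against 0.04 for all genes. Farthest to the female side were Ly6 and Ifitm genes, with a median of -1.38, genes of mature NK cells, with -0.94, and cytokines and chemokines, with -0.64. In CD8 T cells the same members also had medians on the female side, -0.67, -0.81 and -0.46. NK identity genes, activating receptors, inhibitory receptors, respiratory chain genes and MHC class I genes all had medians between -0.08 and 0.07. Not all of these medians were stable. Without the C1q limit they were 0.60 for NK identity genes, 0.54 for activating and 0.46 for inhibitory receptors. For respiratory chain and MHC class I genes they were then 0.04 and 0.14. With at most 1 UMI of Trac, Trbc1 and Trbc2, inhibitory receptors were at -0.47.

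**Figure D3:**
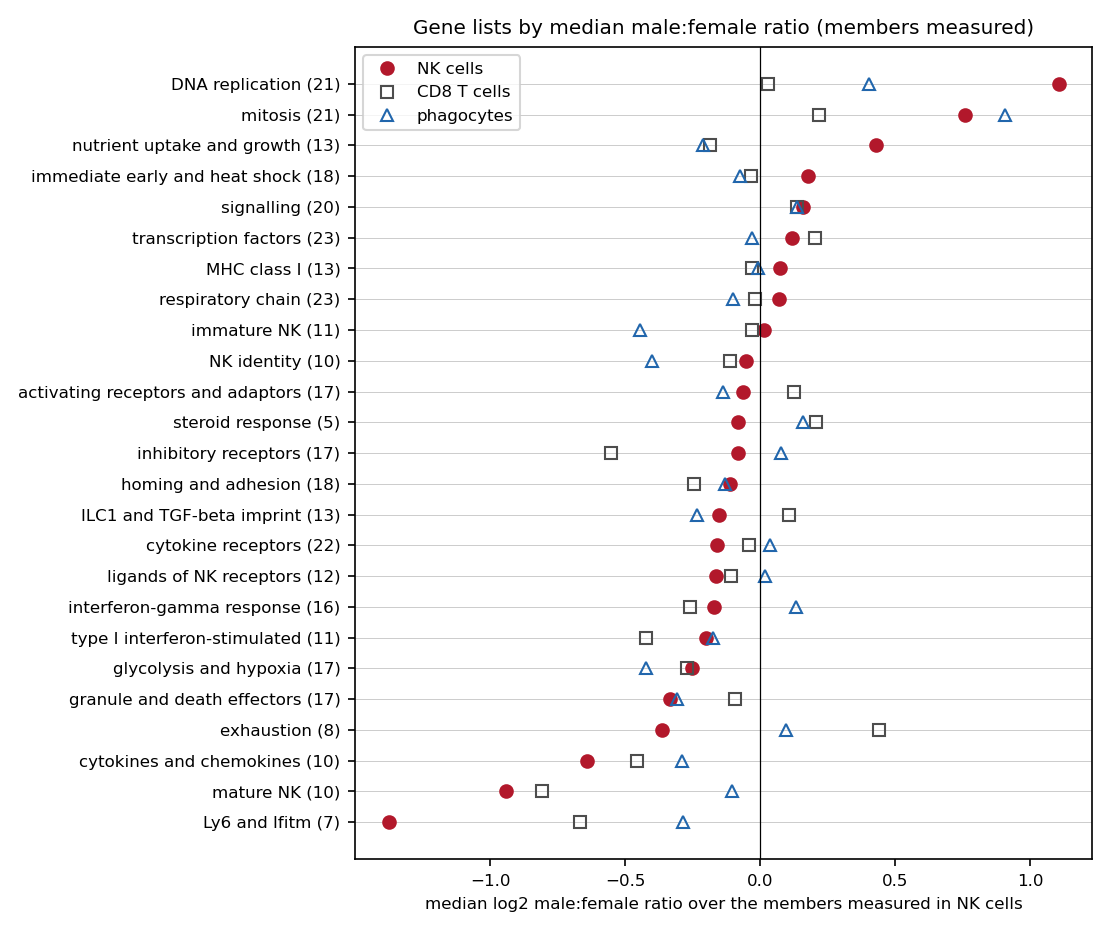
Median log2 male:female ratio of each role list in NK cells, CD8 T cells and phagocytes, with the number of members measured in NK cells. DNA replication lies at 1.10 in NK cells and 0.03 in CD8 T cells, and mitosis at 0.76 in NK cells and 0.90 in phagocytes. Ly6 and Ifitm genes lie at -1.38 in NK cells.

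Inhibitory receptors of NK cells restrain killing of cells that keep MHC class I. The Ly49 receptors among them are encoded by Klra genes, which lie with other killer lectin-like receptor genes on chromosome 6 (27 genes between 128609227 and 131247362 in the mm10 build). The genes are near-identical in places, so reads may have been split between members and each value is uncertain. Klra4, an activating member, had 438 CPM in male and 394 CPM in female NK cells, a male:female ratio of 1.11 (0.89 to 1.39). Klra8, another activating member, had 436 CPM in male and 292 CPM in female NK cells, a ratio of 1.49 (1.17 to 1.92), and Klra7 (Ly49G), an inhibitory one, had 358 CPM in male and 179 CPM in female NK cells, a ratio of 2.0 (1.48 to 2.75). The log2 ratio of Klra7 was 1.00, 3.04 with C1q below 0.1% of UMIs and 1.74 without the C1q limit. Klra9 had 373 and 308 CPM and Klra3 148 and 149 CPM. The differences thus ran to the male side for Klra7 and Klra8, with intervals above 1, and not beyond counting error for Klra4. All of these genes were at most 6.84 CPM in phagocytes.

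Ly49 receptors are known to be expressed by overlapping subsets of NK cells. No Ly49 UMI was found in 24 of 112 male and 16 of 57 female NK cells, UMIs of 1 gene in 13 and 9 cells, of 2 genes in 28 and 15, of 3 genes in 30 and 10, of 4 genes in 14 and 7, and of 5 genes in 3 and 0 cells. Most cells of either library thus held more than 1 member. At this depth a cell without UMIs of a gene may still express it. Klrc1 (NKG2A), the inhibitory partner of Klrd1 (CD94), was at 258 CPM in male and 232 CPM in female NK cells and Klrd1 at 727 and 600.0 CPM. Klrb1b was lower in male NK cells, at 629 CPM in male and 835 CPM in female NK cells, a ratio of 0.753 (0.64 to 0.886), and 166 and 124 CPM in phagocytes.

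Of 17 genes measured in the list of inhibitory receptors, which held all Ly49 genes, 2 were at least 1.5-fold higher in male and 4 in female NK cells. The female-higher ones include checkpoint receptors with few UMIs. Ctla4, which restrains costimulation in T cells, had 54.9 CPM in male and 255 CPM in female NK cells, but a single female cell gave 33.8% of the female UMIs. Its log2 ratio was -2.22, and -0.96 with C1q below 0.1% of UMIs. Regulatory T cell markers summed to 218 and 411 CPM in NK cells with Foxp3 at 0. That list holds Ctla4 itself, so its sum is no separate measure of regulatory T cell RNA beside Ctla4. Havcr2 (TIM-3) had 23.3 CPM in male and 69.6 CPM in female NK cells, with 143 and 128 CPM in phagocytes. Klrg1, a receptor gained as NK cells mature, had 71.5 CPM in male and 189 CPM in female NK cells, of which 26.3% of the female UMIs came from 1 cell, and its log2 ratio of -1.40 became -0.63 without the C1q limit. Pdcd1 (PD-1) was nearly absent, with 2 UMIs in male and 14 in female NK cells. Tigit, which binds the same ligands as the activating CD226, had 131 CPM in male and 139 CPM in female NK cells, a ratio of 0.944 (0.641 to 1.41).

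Activating receptors and adaptors were mostly alike. Of 17 measured, 3 were at least 1.5-fold higher in male and 2 in female NK cells. Klrk1 (NKG2D, the receptor of stress ligands) had 431 CPM in male and 341 CPM in female NK cells, a ratio of 1.26 (1.0 to 1.6), and its adaptor Hcst (DAP10) 235 and 262 CPM. Tyrobp (DAP12), the adaptor of activating Ly49 receptors, had 1848 CPM in male and 1933 CPM in female NK cells, close to its level in phagocytes of 1579 and 1452 CPM. Klrc2 (NKG2C), an activating partner of Klrd1, was higher in male NK cells, at 94.8 CPM in male and 43.1 CPM in female NK cells, a ratio of 2.2 (1.19 to 4.38). It shares long stretches of sequence with Klrc1, so this value too is uncertain.

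The Fc receptor of antibody-dependent killing was lower in male NK cells. Fcgr3 (CD16) had 149.7 CPM in male and 358 CPM in female NK cells, a ratio of 0.418 (0.313 to 0.558), and was far more abundant in phagocytes, at 1327 and 1461 CPM. Its signalling chains showed the same side, Fcer1g with 2089.6 CPM in male and 3123 CPM in female NK cells and a ratio of 0.669 (0.614 to 0.729), and Cd247 (CD3 zeta) with 41.6 CPM in male and 79.6 CPM in female NK cells and a ratio of 0.523 (0.286 to 0.956). Fcer1g was at 3385 and 3633 CPM in phagocytes, whereas Cd247 was at 5.18 and 5.02 CPM there. Costimulatory Tnfrsf9 (4-1BB) was abundant and alike, with 875 CPM in male and 796 CPM in female NK cells, a ratio of 1.1 (0.942 to 1.29).

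Killing machinery was led by granzymes. Gzma, a trypsin-like granzyme whose gene lies on chromosome 13 (113093825 to 113100981, minus strand, mm10), had 4147 CPM in male and 12991 CPM in female NK cells, a male:female ratio of 0.319 (0.303 to 0.336). It was the smallest ratio among the genes measured of the granule list. CD8 T cells held 719 and 2026 CPM, and phagocytes 16.4 and 87 CPM. UMIs of Gzma were found in 83 of 112 male and 51 of 57 female NK cells. Its share of a cell's UMIs had a median of 0.246% in male and 1.42% in female NK cells, and 22 of 112 male (19.6%) and 35 of 57 female cells (61.4%) reached at least 1%. When every cell was thinned to 1000 UMIs, 62.5% of male and 86% of female NK cells held the transcript (74.1% and 89.5% unthinned), against 1.14% and 4.14% of phagocytes (5.03% and 23.4% unthinned, with medians of 10755 and 9361 UMIs). The log2 ratio was -1.65, lay between -1.89 and -0.83 over all alternatives, and was -1.80 with the phagocyte profile subtracted. It was -0.88 without the C1q limit, -0.83 with at most 1 UMI of Trac, Trbc1 and Trbc2, and -1.55 in the 103 male and 45 female NK cells without Trac.

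The other measured genes of the granule list had ratios nearer to 1. Gzmb, the caspase-activating granzyme, had 3059 CPM in male and 5055 CPM in female NK cells, and Gzmc had 4385 CPM in male and 5861 CPM in female NK cells, with 25.2% and 25.8% of the female UMIs in a single cell. In NK cells with under 0.5% of UMIs in cell cycle genes, Gzmb was at 3494 CPM in male and 3705 CPM in female cells, and Gzmc at 5056 and 4561 CPM, so that there neither gene reached a 1.5-fold difference, while Gzma stood at 4023 and 13489 CPM. The log2 ratio of Gzmb was -0.72, and turned to 0.52 with at most 1 UMI of Trac, Trbc1 and Trbc2 and to 0.09 without the C1q limit. That of Gzmc was -0.42, and turned to 0.49 and 0.43 under the same settings and to 0.71 with C1q below 0.1% of UMIs. Prf1, the perforin gene, had a ratio of 0.974 (0.838 to 1.13), which is -0.04 on the log2 scale, and stood at 0.81 without the C1q limit. Outside the list, and looked up after its values were seen, the granzyme gene Gzmf had 311 CPM in male and 1694 CPM in female NK cells, a ratio of 0.184 (0.154 to 0.218). Its UMIs came from 5 male and 5 female cells, and 1 female cell gave 77.3% of the female UMIs. Gzmc, Gzmf and their neighbours are similar in sequence, so the counts of each are uncertain. Serpinb6b and Serpinb9, inhibitors thought to shield the killer from its own granzymes, had 933 CPM in male and 627 CPM in female NK cells and 1625 CPM in male and 1336 CPM in female NK cells, ratios of 1.49 (1.26 to 1.77) and 1.22 (1.08 to 1.37). The death ligand gene Fasl had 96.5 CPM in male and 82.9 CPM in female NK cells. Of 17 granule and death genes measured, 0 were at least 1.5-fold higher in male and 6 in female NK cells. Without the C1q limit the list's median turned to the male side (0.39, against -0.33 with it).

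**Figure D4:**
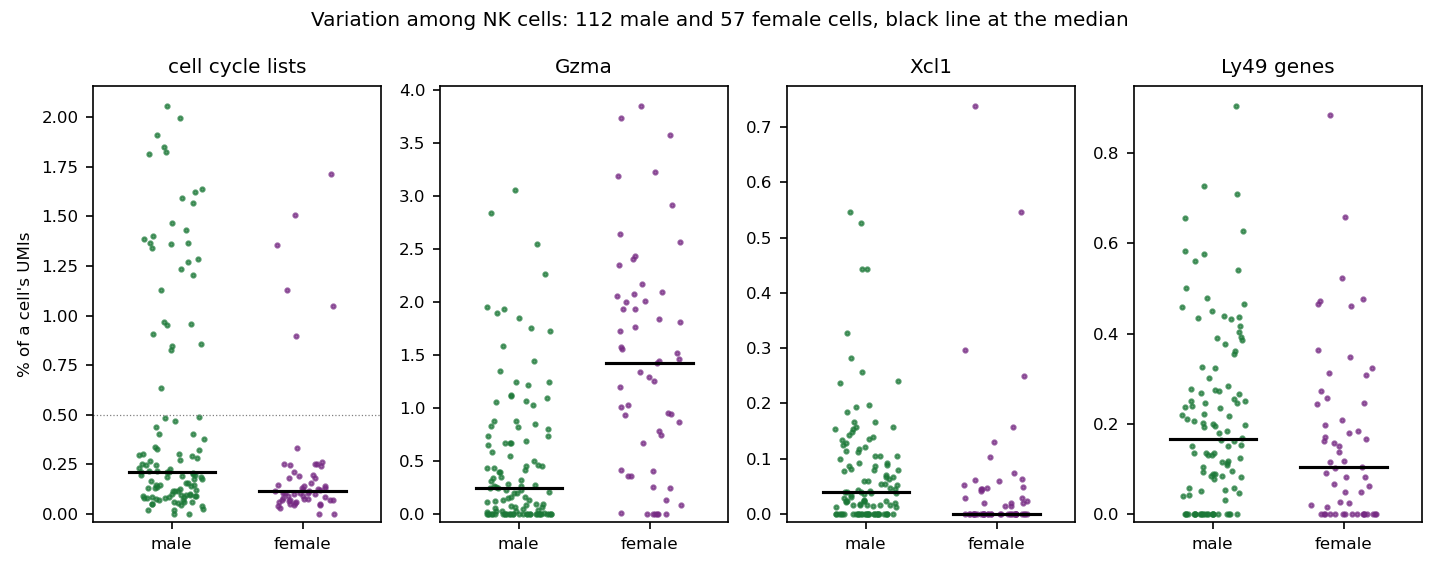
Share of each NK cell's UMIs in the cell cycle lists, in Gzma, in Xcl1 and in the Ly49 genes, with the 112 male cells on the left and the 57 female cells on the right of each panel, and a black line at the median. The median share of Gzma is 0.246% in male and 1.42% in female cells, and 22 of 112 male and 35 of 57 female cells reach at least 1%.

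Among secreted signals, Xcl1 and Ccl5 stood on opposite sides. Xcl1, a chemokine for cross-presenting dendritic cells (chromosome 1, 164931644 to 164935527, mm10), had 777 CPM in male and 361 CPM in female NK cells, a male:female ratio of 2.15 (1.74 to 2.67), and 201 and 315 CPM in CD8 T cells. It was found in 81 of 112 male and 25 of 57 female NK cells. After thinning these were 38.4% and 22.8% (72.3% and 43.9% unthinned), against 0.438% and 0.819% of phagocytes (3.67% and 5.2% unthinned). Phagocytes held it at 7.94 and 10 CPM. The male side of Xcl1 was lost, with a log2 ratio of -0.12, when at most 1 UMI of Trac, Trbc1 and Trbc2 was allowed, a limit that left 18 cells in either library, and it was 1.75 without the C1q limit, against 1.10 with it. Ccl5, a chemokine for T cells and macrophages, had 572 CPM in male and 1319 CPM in female NK cells, a ratio of 0.434 (0.374 to 0.502), and 133 and 247 CPM in phagocytes. Its log2 ratio was -1.20, -2.87 with C1q below 0.1% of UMIs, -0.67 without the C1q limit and -0.25 with at most 1 UMI of Trac, Trbc1 and Trbc2. CD8 T cells held more Ccl5 than NK cells did, 3364 and 2143 CPM, the male value being the higher.

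Ifng, the main cytokine by which NK cells act on other cells, was low. It had 27 UMIs in 16 male cells and 61 UMIs in 8 female cells, and 1 female cell gave 78.7% of the female UMIs, so the difference of 44.9 and 202 CPM rests on that cell. Tnf had 23.3 CPM in male and 39.8 CPM in female NK cells, Ccl3 18.3 and 43.1 CPM and Ccl4 76.5 and 89.5 CPM. Csf2 had 1 UMI in male and 0 in female NK cells, and Il2 had 0 in either. Of 10 members measured, 1 was at least 1.5-fold higher in male and 5 in female NK cells. Among members at least 2-fold above phagocytes the list's median was 0.08, against -0.64 for all measured.

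Identity factors were alike between the sexes. Eomes had a ratio of 0.949 (0.733 to 1.24), Tbx21 (T-bet) 115 and 92.8 CPM and a ratio of 1.24 (0.787 to 1.99), and Id2, an inhibitor of E proteins needed by innate lymphocytes, 1204 and 1111 CPM and 1.08 (0.952 to 1.24). Irf8, needed for full NK maturation in mice, was the most abundant of the listed factors, with 1772 CPM in male and 1999 CPM in female NK cells, a ratio of 0.886 (0.801 to 0.981). Phagocytes held Irf8 at 247 and 256 CPM and Id2 at 669.9 and 493 CPM. These ratios lie close to 1, with intervals that exclude a 2-fold difference.

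Tcf7, Klf2, Bach2 and Ikzf2 were higher in male NK cells. Tcf7 (TCF-1, chromosome 11, 52252371 to 52283014, mm10) had 199.6 CPM in male and 59.7 CPM in female NK cells, a ratio of 3.35 (2.03 to 5.84), with 117 and 89.4 CPM in CD8 T cells and 4.18 and 4.91 CPM in phagocytes. Its UMIs came from 57 male and 14 female cells, which is 50.9% and 24.6% of NK cells, and 18.8% and 7.02% after thinning, against 0.482% and 0.451% of phagocytes (2.91% and 3.3% unthinned). Its log2 ratio was 1.74 and lay between 0.77 and 2.29 over all alternatives. Klf2, a factor of quiescence and egress, had 128 CPM in male and 49.7 CPM in female NK cells, a ratio of 2.58 (1.47 to 4.82), with 114 and 58.2 CPM in phagocytes. Its log2 ratio was 1.37, but 0.25 without the C1q limit, 0.56 with C1q below 0.1% of UMIs, 0.57 with 1 UMI of Ncr1 or Klrb1c and 3.48 with at most 1 UMI of Trac, Trbc1 and Trbc2. Bach2, a repressor of effector differentiation, had 26 UMIs in male and 4 in female NK cells, a ratio of 3.26 (1.13 to 12.9), and Ikzf2 (Helios) had 93.2 CPM in male and 36.5 CPM in female NK cells, a ratio of 2.55 (1.32 to 5.41). Other factors stood on the female side. Lef1, a close relative of TCF-1, had 41.6 CPM in male and 96.1 CPM in female NK cells, a ratio of 0.433 (0.243 to 0.765) and a log2 ratio of -1.21 that was -0.48 without the C1q limit, and Zeb2, a factor of terminal maturation, 33.3 CPM in male and 79.6 CPM in female NK cells and 0.418 (0.219 to 0.79), with 208 and 253 CPM in phagocytes. Of 23 factors measured, 6 were at least 1.5-fold higher in male and 3 in female NK cells.

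**Figure D5:**
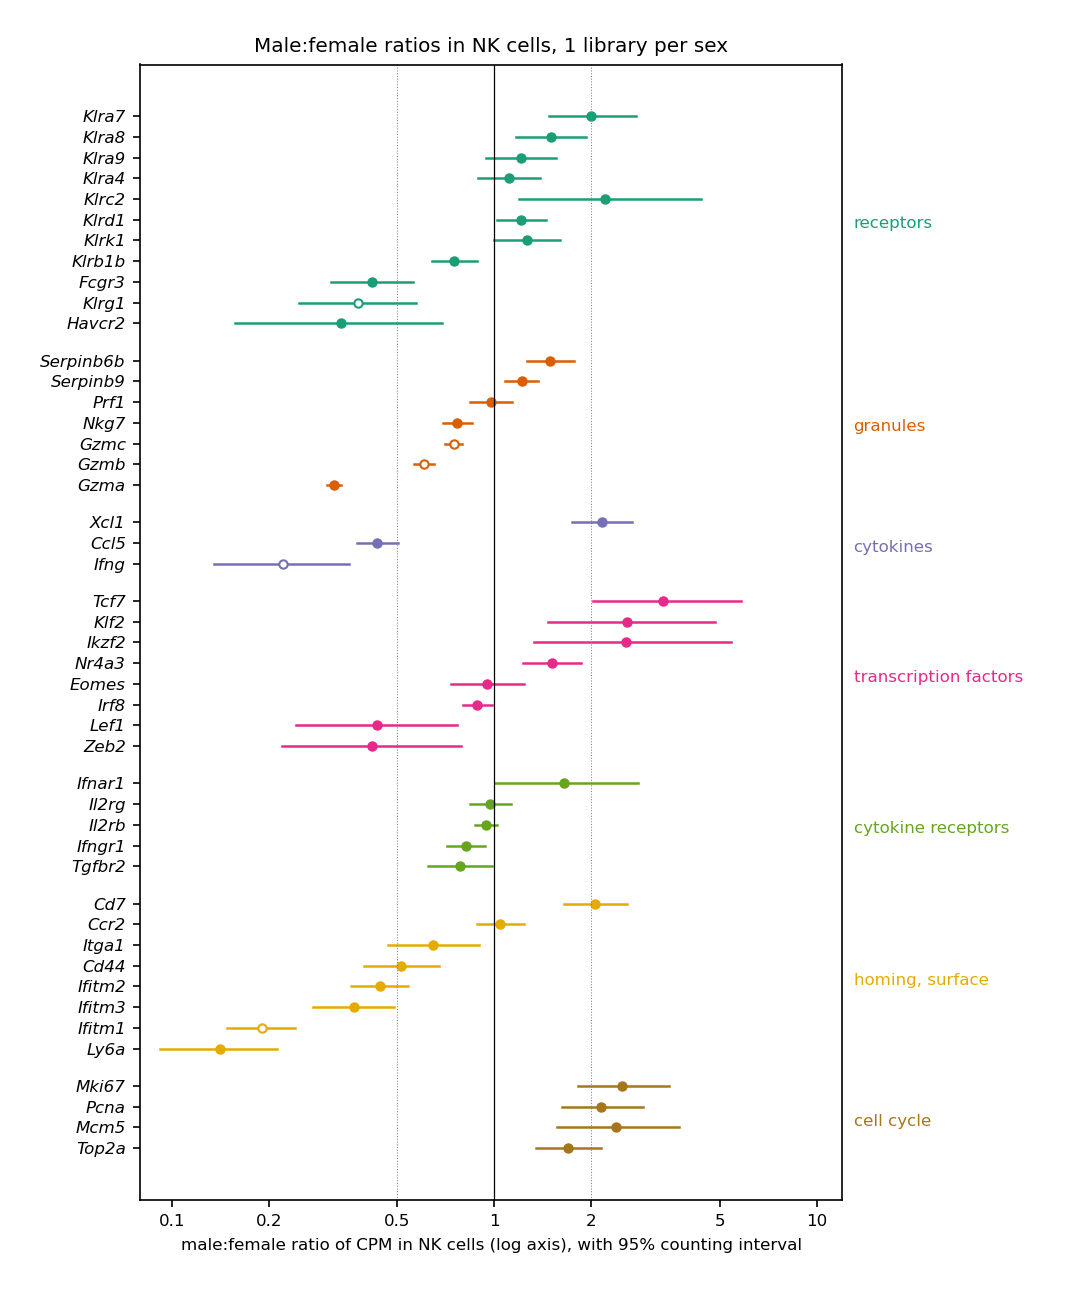
Male:female ratio of NK cell levels, on a log axis, with 95% counting intervals, for genes grouped by role; open circles mark genes that missed the limits on UMIs or on the share of a single cell, and dotted lines stand at 0.5 and 2. Tcf7 lies at 3.35 and Xcl1 at 2.15, while Gzma lies at 0.319 and Ly6a at 0.141.

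Genes of NK maturation were split. Of 10 genes of mature NK cells, 1 (Klf2) was at least 1.5-fold higher in male and 6 in female NK cells, and of 11 genes of immature NK cells, 3 and 1. Both lists hold genes described above, among them Gzma and Zeb2 in the mature and Tcf7 and Xcl1 in the immature list. Cd7, a receptor of early lymphocytes, had 674 CPM in male and 328 CPM in female NK cells, a ratio of 2.05 (1.64 to 2.58), whereas Thy1 had 1299 CPM in male and 1465 CPM in female NK cells, a ratio of 0.887 (0.788 to 0.999), and Emb, an adhesion protein of immature NK cells, 1599 CPM in male and 1585 CPM in female NK cells and 1.01 (0.903 to 1.13). Itgam (CD11b), the integrin of mature NK cells, had 53.2 CPM in male and 139 CPM in female NK cells, but was at 542 and 484 CPM in phagocytes and turned to the male side, at a log2 ratio of 0.84, with C1q below 0.1% of UMIs. Without the C1q limit the median of the mature list was -0.06, against -0.94 with it. In CD8 T cells the same genes had a median of -0.81, so the female side was not particular to NK cells.

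Of 18 homing and adhesion genes, 1 was at least 1.5-fold higher in male and 7 in female NK cells. The abundant ones were alike. Itgb1 had 1136 CPM in male and 968 CPM in female NK cells, Ccr2, a receptor for inflammatory entry, 710.4 CPM in male and 679.6 CPM in female NK cells, and Itgal (LFA-1) 584 CPM in male and 567 CPM in female NK cells, ratios of 1.17 (1.02 to 1.35), 1.05 (0.883 to 1.24) and 1.03 (0.856 to 1.24). In phagocytes Itgb1 was at 506 and 516 CPM, Ccr2 at 254 and 263 CPM and Itgal at 224 and 186 CPM. Cd44, a hyaluronan receptor, was lower in male NK cells, with 193 CPM in male and 375 CPM in female NK cells, a ratio of 0.515 (0.394 to 0.674), and 459 and 618 CPM in phagocytes. Ccr7, which leads cells to lymph nodes, had 73.2 CPM in male and 33.1 CPM in female NK cells, with 38.6% of the male and 50% of the female UMIs in 1 cell each. S1pr5, the egress receptor of mature NK cells, had 2 UMIs in male and 3 in female NK cells, and Itgae (CD103) 4 and 2.

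Features of type 1 innate lymphoid cells and of exposure to TGF-beta were present but not uniform. Itga1 (CD49a), an integrin of ILC1, had 149.7 CPM in male and 232 CPM in female NK cells, a ratio of 0.645 (0.467 to 0.895), with at most 14 CPM in phagocytes. Inpp4b, a phosphatase gene expressed in ILC1, stood the other way with 188 CPM in male and 76.2 CPM in female NK cells, a ratio of 2.47 (1.56 to 4.05). Rgs1, a brake on chemokine receptor signalling, was among the most abundant genes of the list, with 2179 CPM in male and 1906 CPM in female NK cells, a ratio of 1.14 (1.04 to 1.26), and 1172 and 1228 CPM in phagocytes. Of 13 measured genes, 1 was at least 1.5-fold higher in male and 4 in female NK cells. Of the ILC2 and ILC3 list only Gata3, which NK cells also use, had enough UMIs, with 58.2 and 89.5 CPM.

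Receptors and signalling of NK cell growth factors were nearly alike. Il2rb had 3081 CPM in male and 3269 CPM in female NK cells, a ratio of 0.943 (0.872 to 1.02), and Il2rg, the shared gamma chain, 887 CPM in male and 912 CPM in female NK cells and 0.973 (0.839 to 1.13). Ifngr1 had 927 CPM in male and 1134 CPM in female NK cells, a ratio of 0.817 (0.713 to 0.938), and Tgfbr2 329 CPM in male and 421 CPM in female NK cells and 0.782 (0.623 to 0.986). Ifnar1, a chain of the type I interferon receptor, was at 119.8 CPM in male and 72.9 CPM in female NK cells, a ratio of 1.64 (1.01 to 2.78), and at 156 and 115 CPM in phagocytes. Of 22 cytokine receptors and their signalling genes, 2 were at least 1.5-fold higher in male and 3 in female NK cells. Il12rb2, a chain of the interleukin-12 receptor, had 11 UMIs in male and 3 in female NK cells.

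Among receptor-proximal signalling genes, 4 of 20 were at least 1.5-fold higher in male and 1 in female NK cells. Txk, the Tec-family kinase, had 343 CPM in male and 361 CPM in female NK cells, a ratio of 0.948 (0.748 to 1.21). Plcg2, the phospholipase downstream of NK activating receptors, was lower in male NK cells, with 64.9 CPM in male and 143 CPM in female NK cells, a ratio of 0.455 (0.287 to 0.719), and 88.6 and 79.2 CPM in phagocytes. Lck had 459 and 408 CPM and Sh2d2a, an adaptor that binds Lck, 1021 and 925 CPM.

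Cell cycle genes had higher levels in male NK cells as a group. Of 21 DNA replication genes measured, 17 were at least 1.5-fold higher in male NK cells and 0 in female NK cells. The mitosis list had 15 of 21 members on the male side and 0 on the female side. Mki67, the proliferation antigen, had 388 CPM in male and 156 CPM in female NK cells, a ratio of 2.49 (1.81 to 3.48), Pcna, the replication clamp, 428 CPM in male and 199 CPM in female NK cells and 2.15 (1.62 to 2.9), and Top2a, a topoisomerase, 561 CPM in male and 331 CPM in female NK cells and 1.69 (1.35 to 2.14). Their UMIs lay in a minority of cells. At least 0.5% of UMIs in the 51 cell cycle genes were found in 31 of 112 male (27.7%, 19.6 to 36.9) and 6 of 57 female NK cells (10.5%, 3.96 to 21.5), a ratio of 2.63 (1.08 to 7.71). Within 0.4 to 0.6% lay 6 male and 0 female cells, and the median share was 0.212% and 0.114%. After thinning the medians were 0.2% and 0.1%, which is 2 and 1 UMIs per cell and allows no comparison. The replication list summed to 3257 CPM in male and 1588 CPM in female NK cells, against 1311 and 976 CPM in phagocytes. In CD8 T cells the median log2 ratio of replication genes was 0.03 and in phagocytes 0.40. For mitosis genes it was 0.76 in NK cells, 0.22 in CD8 T cells and 0.90 in phagocytes. The male side of the mitosis list was thus as large in phagocytes as in NK cells.

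Outside cycling cells many of the differences given above kept their side, among them those of Gzma, Tcf7, Xcl1 and Cd7. Among NK cells under 0.5% their log2 male:female ratios were -1.75, 1.11, 0.71 and 0.80. In all NK cells these were -1.65, 1.74, 1.10 and 1.04. Ly6a was at -3.01 and Klf2 at 1.33 in the cells under 0.5%. The medians of the cell cycle lists, on which the limit was set, were still on the male side there. They were 1.04 for 11 DNA replication genes and 0.57 for 5 mitosis genes with enough UMIs. Growth genes stood with the cell cycle genes. Of 13 nutrient uptake and growth genes, 5 were at least 1.5-fold higher in male and 0 in female NK cells, among them the nucleolar gene Npm1 with 1647 CPM in male and 1041 CPM in female NK cells, a ratio of 1.58 (1.39 to 1.8) and 749 and 801 CPM in phagocytes, and Odc1, the first enzyme of polyamine synthesis, with 522 CPM in male and 338 CPM in female NK cells and 1.54 (1.23 to 1.95). Of 23 nuclear-encoded respiratory chain genes, 3 and 0 passed that size, and of 17 glycolysis and hypoxia genes 1 and 2. Ldha, lactate dehydrogenase, was at 802 CPM in male and 802 CPM in female NK cells and at 695 and 991 CPM in phagocytes.

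Small surface proteins of the Ly6 and Ifitm families, many of them induced by interferons, were lower in male NK cells. Of 7 measured, 6 were at least 1.5-fold higher in female and 0 in male NK cells. The list's median log2 ratio of -1.38 was -0.64 when 1 UMI of Ncr1 or Klrb1c sufficed, -0.65 with at most 1 UMI of Trac, Trbc1 and Trbc2, and -0.70 without the C1q limit. Ly6a (Sca-1) had 51.6 CPM in male and 365 CPM in female NK cells, a ratio of 0.141 (0.0917 to 0.212). After thinning 3.57% of male and 22.8% of female NK cells held it (17.9% and 61.4% unthinned), against 19.6% and 29.2% of phagocytes (51.1% and 69.8% unthinned). It was at 644 and 1270.2 CPM in CD8 T cells and at 361 and 436 CPM in phagocytes, so that neither share nor level in NK cells exceeded that of phagocytes of the same library. Its log2 ratio was -2.82 and became -0.35 when 1 UMI of Ncr1 or Klrb1c sufficed. Ifitm2 had 301 CPM in male and 683 CPM in female NK cells, with 768 and 685 CPM in phagocytes, and Ifitm1 161 CPM in male and 849 CPM in female NK cells, with 143 and 206 CPM in phagocytes and 51.2% of the female UMIs in 1 cell. The log2 ratio of Ifitm1 was -2.39, and -0.43 with at most 1 UMI of Trac, Trbc1 and Trbc2. Ly6e, the most abundant, stood apart with 1782 CPM in male and 1545 CPM in female NK cells, a ratio of 1.15 (1.03 to 1.29), and 1791 and 1149 CPM in phagocytes.

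Medians of other interferon genes were less far to the female side, at -0.20 for type I interferon-stimulated and -0.17 for interferon-gamma response genes. The type I median depended on the setting. It was -0.64 with C1q below 0.1% of UMIs, -0.62 as the mean of cells' own CPM and -0.79 without the C1q limit. With the phagocyte profile subtracted it was 0.11. The interferon-gamma median lay between -0.27 and 0.18 over all alternatives. Of 11 type I interferon-stimulated genes, 1 was at least 1.5-fold higher in male and 3 in female NK cells, and of 16 interferon-gamma response genes, 2 and 4. Isg15, a ubiquitin-like protein, had 31.6 CPM in male and 82.9 CPM in female NK cells, and 141 and 144 CPM in phagocytes. MHC class I genes were alike, with B2m at 4484 CPM in male and 4259.7 CPM in female NK cells, H2-D1 at 3964 CPM in male and 4256 CPM in female NK cells and H2-K1 at 3213 CPM in male and 3636 CPM in female NK cells. In phagocytes B2m was at 4373 and 4091 CPM, H2-D1 at 3248 and 3718 CPM and H2-K1 at 2614 and 2771 CPM.

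Of 18 immediate early and heat shock genes, 4 were at least 1.5-fold higher in male and 1 in female NK cells, with a median log2 ratio of 0.18. Hspa1b, an inducible Hsp70 chaperone gene, had 218 CPM in male and 43.1 CPM in female NK cells, a ratio of 5.06 (2.86 to 9.75), in 17 male and 10 female cells, while phagocytes held 208 and 205 CPM. Its log2 ratio of 2.34 was 1.26 with 1 UMI of Ncr1 or Klrb1c and 0.50 with at most 1 UMI of Trac, Trbc1 and Trbc2. Hspa1a is a near-identical copy of Hspa1b, so the count of either is uncertain. Hspa8, a constitutive member of the family, was alike, with 928 CPM in male and 852 CPM in female NK cells, a ratio of 1.09 (0.938 to 1.27). Fos, an immediate early gene, had 253 CPM in male and 156 CPM in female NK cells, a ratio of 1.62 (1.16 to 2.3).

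Steroid-responsive genes showed 1 difference of this size among 5 measured. Tsc22d3 (GILZ), a glucocorticoid target, had 206 CPM in male and 109 CPM in female NK cells, a ratio of 1.89 (1.28 to 2.86). The receptor gene Nr3c1 had 105 CPM in male and 123 CPM in female NK cells, a ratio of 0.855 (0.561 to 1.32), and Fkbp5, a glucocorticoid target, 84.8 CPM in male and 86.2 CPM in female NK cells and 0.984 (0.602 to 1.64).

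Among the 15 largest male:female ratios stood genes of replication and division, with few UMIs each: Rfc3, a clamp-loader subunit, with 41 UMIs in male and 4 in female NK cells, E2f1, a factor of S phase entry, with 40 and 4, Asf1b, a histone chaperone, with 48 and 5, and Hmmr, a spindle protein, with 37 and 4. Fkbp3, a prolyl isomerase, ranked highest with 40 UMIs in male and 2 in female NK cells, a ratio of 10 (2.6 to 85.7). On thinning, when its count was far smaller, its log2 ratio was -0.56, against 3.33.

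The 15 smallest ratios were led by genes that phagocytes express. Mmp13, a collagenase, had 58.2 CPM in male and 451 CPM in female NK cells, a ratio of 0.129 (0.0864 to 0.188), and 1301 and 3532 CPM in phagocytes. Trem2, a lipid receptor of macrophages, had 15 CPM in male and 82.9 CPM in female NK cells and 232 and 338 CPM, Ccl12, a monocyte chemokine, 15 CPM in male and 92.8 CPM in female NK cells and 493 and 551 CPM, and Hmox1, the haem-degrading enzyme, 16.6 CPM in male and 89.5 CPM in female NK cells and 270.5 and 471 CPM. In each of the 4 the phagocyte level was above the NK level of the same library. Osgin1, a gene of the oxidative stress response, had 36.6 CPM in male and 116 CPM in female NK cells, a ratio of 0.315 (0.176 to 0.553), with 7.9 and 12 CPM in phagocytes. Of the 15 genes, Ly6a alone is also in a role list.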

How the data were processed

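The values are UMI counts per gene and barcode, as deposited by the authors. Per the submitters' processing notes, CASAVA 1.8, UMI-tools and Seurat were used with the mm10 build; no source used here gives the aligner or says whether doublets were removed. Barcodes are serial names, so those shared between libraries could not be counted. Counts were summed over the NK cells of a library with Python 3.11.15, numpy 2.4.6, scipy 1.17.1 and pandas 2.3.3. Levels have exact Poisson intervals, shares exact Clopper-Pearson intervals and ratios exact conditional binomial intervals, at 95%. They cover counting error alone. The code was checked on simulated counts. Scrublet (scanpy 1.11.5, rate 6%) called 0 male and 1 female cells by its own threshold, which has not worked, so no cell was removed as a doublet. Leaving out the 5% highest scores was an alternative. Sex-linked, mitochondrial, ribosomal, haemoglobin, immunoglobulin and T cell receptor genes, unnamed gene models and the genes of the rule were left out of counts over all genes.

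Genes were named by rule: for NK cells against other cells, the 25 largest and 5 smallest folds, for CD8 T cells (at least 2 CD3 UMIs and at least 1 of Cd8a or Cd8b1) the 10 largest and 10 smallest, for male:female the 15 largest and 15 smallest ratios, and in each list the 2 largest and 2 smallest ratios and the 3 members with most UMIs. Of these the text gives a selection, and other genes named were chosen after their values were seen. The members and lists were chosen with earlier results of these data known. The alternatives changed the limits of the rule, the gene filter, the scaling, the depth (cells thinned to 1000 UMIs), cycling cells, doublets and phagocyte RNA. A few genes are not reported here.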

Additional observations from a re-analysis of the deposited data

Results flagged for a closer look

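Klhdc3 and Sp4 stood on opposite sides in NK and CD8 T cells, with female NK cells and male CD8 T cells holding at least 2-fold more. They came from a search of those of the 3548 genes that had at least 30 UMIs in CD8 T cells. A gene was kept when it was at least 2-fold apart on opposite sides with both intervals excluding 1, and no other gene passed. The intervals below were thus part of the choice and lend it no weight. Klhdc3, which encodes a kelch-domain protein, had 18.3 CPM in male and 63 CPM in female NK cells, a male:female ratio of 0.291 (0.125 to 0.642), and 49.2 and 21.3 CPM in CD8 T cells, a ratio of 2.31 (1.16 to 5.11). Sp4, a zinc finger factor, had 25 CPM in male and 56.4 CPM in female NK cells, a ratio of 0.443 (0.206 to 0.943), and 77.6 and 36.2 CPM in CD8 T cells, a ratio of 2.15 (1.26 to 3.86). Counts are low, with 11 and 19 UMIs of Klhdc3 and 15 and 17 of Sp4 in male and female NK cells. The difference between the 2 cell types was not tested, as there is 1 library per sex.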

How the results depend on the processing

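No paired analysis was possible because there is 1 library per sex, with no replicate numbers and no test. Over all alternatives the log2 male:female ratio of Gzma lay between -1.89 and -0.83, that of Ly6a between -3.37 and -0.35, of Tcf7 between 0.77 and 2.29, of Cd7 between 0.66 and 1.52, and the median of DNA replication genes between 0.70 and 1.32. The log2 male:female ratio of the NK share was 0.75, 2.11 with C1q below 0.1% (101 male and 20 female cells), -0.13 among NK, CD8 T and CD4 T cells, and -0.23 with at most 1 UMI of Trac, Trbc1 and Trbc2 (18 cells in either library, as Trbc1 is abundant in NK cells). Without the C1q limit it was 0.34 (123 male and 83 female cells), and with 1 UMI of Ncr1 or Klrb1c 0.37 (151 and 100 cells).

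The 185 male-higher and 126 female-higher genes (59.5% male-higher) became 395 and 94 (80.8%) with C1q below 0.1%, 12 and 21 (36.4%) with the Trac, Trbc1 and Trbc2 limit, 174 and 311 (35.9%) without the C1q limit, 141 and 167 (45.8%) with 1 UMI of Ncr1 or Klrb1c, 158 and 154 (50.6%) with median-of-ratios scaling, 205 and 188 (52.2%) as the mean of cells' own CPM, and 95 and 27 (77.9%) among genes at least 2-fold over phagocytes. They were 745 and 537 at 10 UMIs, 32 and 24 at 100 UMIs, and 39 and 21 in thinned cells, where fewer genes had enough UMIs. The 339 genes higher and 566 lower in NK than other cells (37.5% higher) became 174 and 544 (24.2%) with C1q below 0.1%, 101 and 461 (18.0%) with the Trac, Trbc1 and Trbc2 limit, 155 and 63 (71.1%) without the C1q limit, 2605 and 1095 (70.4%) at 10 UMIs, 207 and 349 at 100 UMIs, and 244 and 722 (25.3%) with TMM scaling.

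List medians moved to 0.076 for cytokines and chemokines at least 2-fold over phagocytes, to 0.13 (Trac, Trbc1 and Trbc2 limit) and 0.39 (no C1q limit) for granule genes, to 0.091 (thinned) and -0.056 (no C1q limit) for mature NK genes, to 1.83 for the mitosis genes left after thinning, and for Ly6 and Ifitm genes to -0.72 (mean of cells' own CPM), -0.73 (thinned) and -0.95 (under 0.5% cell cycle UMIs). Below 2-fold, Gzmc turned to 0.15 (under 0.5% cell cycle UMIs) and 0.092 (mean of cells' own CPM). Genes at least 2-fold apart that turned had log2 ratios of 0.091 for Emp1, 0.046 for Insig2 and 0.016 for Srxn1 (1 UMI of Ncr1 or Klrb1c), 0.35 for Srxn1, -0.56 for Fkbp3 and -0.24 for Rfc3 (thinned), 1.09 for Fam210a and -0.12 for Xcl1 (Trac, Trbc1 and Trbc2 limit), 0.84 for Itgam and 0.083 for Wfdc17 (C1q below 0.1%), and -0.41 for Mki67 in NK cells under 0.5% cell cycle UMIs, which leaves out its cells by construction. Where no cause is given, it was not tested. Median-of-ratios scaling subtracted 0.04 from all log2 ratios and TMM scaling subtracted -0.03. Depth limits the female library most, where 3 UMIs are 9.94 CPM.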

Other observations

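The partners of NK receptors were measured in the other cells of the tumours. Among 5496 male and 3905 female CD45-negative cells, which include the carcinoma cells, the NKG2D ligand genes Raet1e and Ulbp1 were at 86.3 and 93.3 CPM and at 70.3 and 67.1 CPM for male and female tumours. Raet1d, a further ligand gene of this family, was at 13.4 and 19.6 CPM. Members of the family are similar in sequence, so the count of each is uncertain. Pvr, the ligand of CD226, TIGIT and CD96, was at 227 and 241 CPM, and Clec2d, the ligand of NKR-P1B, at 123 and 100.2 CPM. The MHC class I genes read by Ly49 receptors were abundant in CD45-negative cells, H2-D1 at 3459 and 3731 CPM and H2-K1 at 2225 and 2896 CPM. H60b, another NKG2D ligand gene, was at 11.7 and 19.4 CPM, a male:female ratio of 0.604 (0.546 to 0.667), and Raet1d had a ratio of 0.686 (0.623 to 0.756).

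Cytokines that act on NK cells differed in level. Il15, their survival factor, was at 9.64 and 14.2 CPM in male and female CD45-negative cells, and at 10.5 and 7.23 CPM in phagocytes. Il18, which primes NK cells for interferon-gamma release, was at 34.6 and 13.8 CPM in phagocytes. Tgfb1, a cytokine that restrains NK cells, was at 13.5 and 29.8 CPM in male and female CD45-negative cells, a ratio of 0.452 (0.414 to 0.494), and at 86.4 and 96.9 CPM in phagocytes. Il12b, a chain of interleukin-12, was at 4.21 and 0.498 CPM in phagocytes, and Il10 at 89.1 and 20.9 CPM. Tgfb2, another form of TGF-beta, was at 206 and 148 CPM in CD45-negative cells. Cdh1, which encodes E-cadherin, a ligand of KLRG1, was lower in male than in female phagocytes, at 33.9 and 153 CPM. In male and female CD45-negative cells it was at 2.71 and 6.25 CPM, and in NK cells themselves at 73.2 and 146 CPM.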
